A study of Mus musculus with 18 samples.

Results

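Gp38+ stromal cells sorted from mouse salivary glands 23 days after an adenovirus were compared with the same sorted cells from uninfected glands. The members are the 3 libraries titled for day 23 and the 3 titled for hour 0, chosen by title alone, of 18 libraries in the series. In the day 23 group (replicates 7, 8 and 9), wild-type Balb/c mice aged 8 to 12 weeks had received 1e+08 to 1e+09 plaque-forming units of a replication-defective adenovirus 5 into the cannulated submandibular glands. In the hour 0 group (replicates 10, 11 and 12), wild-type Balb/c mice were not infected. Each library is labelled as a mouse of its own, and its RNA came from cells sorted by flow cytometry for gp38, the surface protein podoplanin encoded by Pdpn. The day 8 group (replicates 1, 2 and 3), given the same virus 8 days before, is set beside day 23 where the course matters. No group was cannulated without virus, so the procedure and the virus cannot be told apart.

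Podoplanin marks fibroblastic stromal cells, which lay down matrix in a resting gland and can take on tasks of lymph node stroma when lymphocytes gather in an inflamed tissue. Virus given through the duct of this gland is a known way to induce such gatherings, called tertiary lymphoid structures. Interferons are among the cytokines that reshape stromal cells. Interferon-gamma, made by T and NK cells, acts on gamma-activated sites and then through IRF1, and it raises chemokines, guanylate-binding proteins and antigen presentation. Type I interferons act mainly on interferon-stimulated response elements, and they raise antiviral genes.

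Total counts were 6017781, 14565048 and 4585868 at day 23 and 8542729, 7153873 and 10619144 at hour 0, and CPM below are read counts per 1e+06 after TMM scaling (trimmed mean of M values). The groups differed in low-level background. Counts on 1797 genes of olfactory, vomeronasal and taste receptors, which have no known role in stroma, came to 0.0247, 0.0175 and 0.0253 per kb and 1e+07 counts at day 23 and 1.21, 1.77 and 1.1 at hour 0. Replicates 1 to 9 had the low level and replicates 10 to 18 the high one, so this difference and the time point cannot be told apart. The tests therefore used only the 11273 genes with at least 5 CPM in at least 3 of the 6 libraries. A gene under 5 CPM throughout 1 group passed only if all 3 libraries of the other group reached that level. In such a gene the filter itself sets the groups apart, so a lack of overlap adds no support. The filter used CPM before TMM scaling. Genes below that passed through hour 0 alone include Gfra3, Gfap, Twist2, Ryr1, Plin4, Klk1b9, Klk1b22, Mroh2a, Kcna1, Aatk, Megf6 and Ptprz1. Those that passed through day 23 alone include Il1b, Lyz2, C1qb and Dcpp1. Pearson's r of log2 CPM across genes, between replicates, was 0.912 to 0.937 for day 23 and 0.954 to 0.959 for hour 0. Fibroblast markers were present in every library. Pdgfra had 1642, 1568 and 1256 CPM at day 23 and 2149, 1975 and 1846 CPM at hour 0, and Pdpn itself had 69.3, 63.7 and 41.4 CPM at day 23 and 68.7, 58.1 and 60.8 CPM at hour 0. Gland RNA was abundant too, with acinar secretory genes taking 14.6% ± 6.14 (SD, n = 3) of counts at day 23 and 6.54% ± 2.32 (SD, n = 3) at hour 0.

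At day 23, 1744 of 11273 genes (15.5%) differed from hour 0 at an adjusted p under 0.05, of which 952 (8.44%) were higher and 792 (7.03%) lower. The test was edgeR's quasi-likelihood test with Benjamini-Hochberg adjustment, and each fold change is given on the log2 scale as day 23 minus hour 0 unless day 8 is named, with its standard error after ±. Most tested interferon-gamma-responsive and MHC class I genes were above the uninfected level, while 7 of 26 type I interferon-stimulated genes were called. Several contractile and glial genes were lower, and several genes of the gland's acinar cells were higher. In bulk RNA, a change in the number of cells of a type and a change in RNA per cell cannot be told apart. All 3 day 23 libraries lay above all 3 hour 0 libraries in 1283 genes (11.4%) and below them in 1479 (13.1%). Scaling by library totals in place of TMM lowered the median log2 fold change of all genes by 0.28 and gave 416 higher and 2037 lower genes. Without replicate 7 the counts were 1502 higher and 1219 lower, without replicate 8 they were 515 higher and 631 lower, and without replicate 10 they were 536 higher and 535 lower. Without replicate 11 there were 564 higher and 507 lower genes, and without replicate 9 there were 709 higher and 578 lower.

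**Figure D1:**
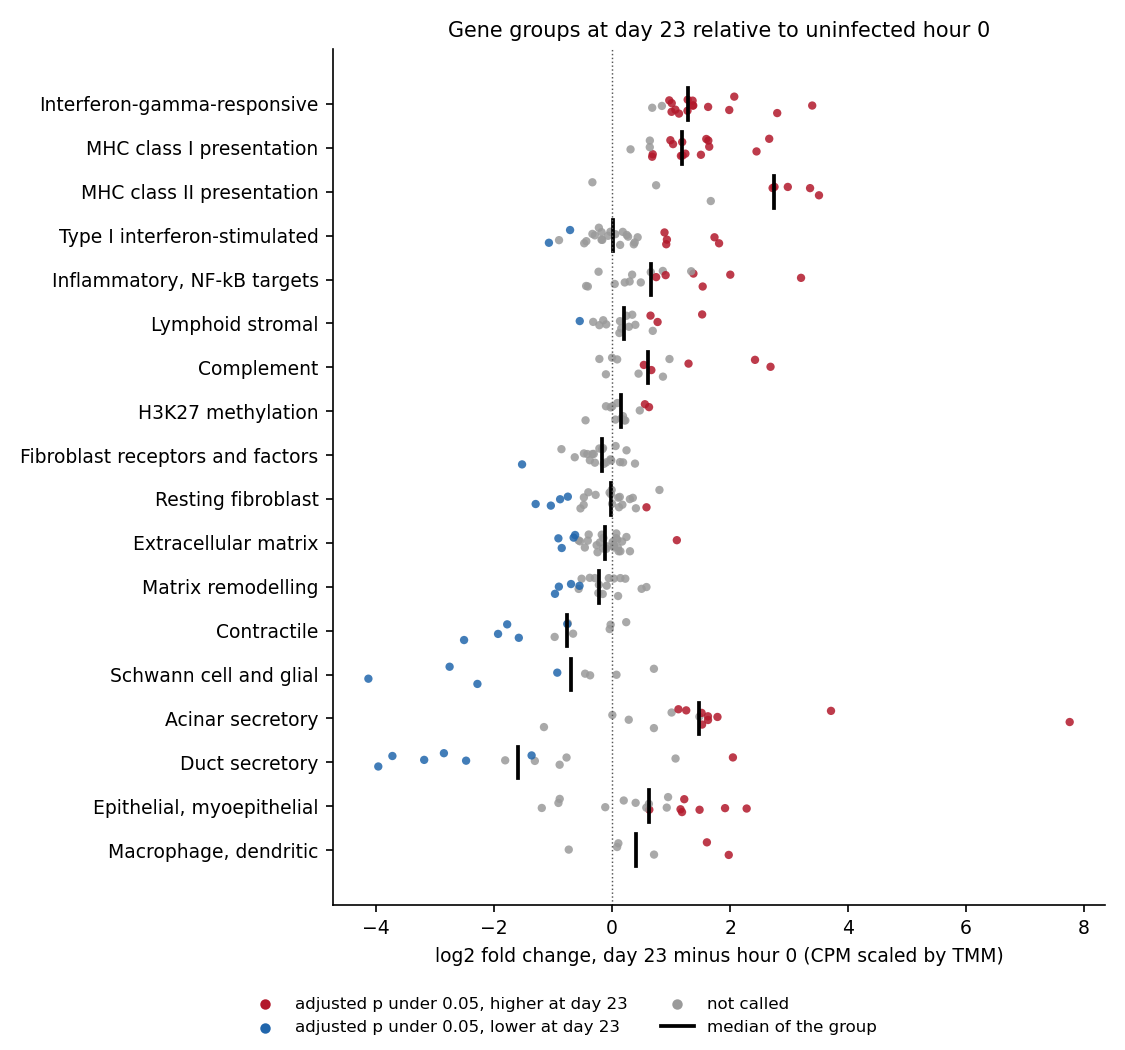
Log2 fold change at day 23 relative to hour 0 (x axis, CPM scaled by TMM) of each tested gene in 18 gene groups. Each point is a gene, red or blue where its adjusted p was under 0.05, and black bars are group medians, which reached 1.28 for interferon-gamma-responsive genes and -0.76 for contractile genes.

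Most interferon-gamma-responsive genes rose at day 23. Of 20 genes in the list, 17 could be tested, of which 15 rose and 0 fell, against 8.44% of all tested genes that rose, and the median log2 fold change was 1.28 against -0.0011 over all genes tested. Library totals as the scale left 14 higher and 0 lower. Against day 8, 0 were higher and 1 lower, with a median of 0.086; the lower gene was Irgm1 (-0.74 ± 0.20, adjusted p = 0.02). Cxcl9 (ENSMUSG00000029417, GRCm38 chr5:92321347-92328079), a chemokine for activated T cells, had 123, 112 and 74.5 CPM at day 23, against 4.08, 6.03 and 18.9 CPM at hour 0. All 3 day 23 libraries lay above all 3 hour 0 libraries, and the log2 fold change was 3.39 ± 0.54, adjusted p = 0.00025. Tgtp2 (ENSMUSG00000078921, GRCm38 chr11:49057194-49064206), an interferon-inducible GTPase, had 102, 149 and 97.9 CPM at day 23 and 8.46, 15.0 and 26.4 CPM at hour 0 (2.80 ± 0.38, adjusted p = 5.4e-05), again with no overlap. Its near copy Tgtp1 was under the filter, and reads shared by these paralogs may be split between them. Iigp1, a GTPase that attacks the vacuoles of intracellular parasites, had 265, 311 and 226 CPM at day 23 and 53.2, 49.9 and 87.6 CPM at hour 0 (2.07 ± 0.29, adjusted p = 8e-05). Gbp4, one of the guanylate-binding proteins, had 191, 89.4 and 147 CPM at day 23 and 28.1, 29.6 and 49.8 CPM at hour 0 (1.99 ± 0.43, adjusted p = 0.0038). In both genes the groups did not overlap. Irf1 (ENSMUSG00000018899, GRCm38 chr11:53770014-53778374), the transcription factor that carries the signal on, had 447, 228 and 427 CPM at day 23 and 131, 151 and 220.0 CPM at hour 0 (1.13 ± 0.30, adjusted p = 0.014). Other members that rose were Gbp5 (1.63), Socs1 (1.38), which encodes an inhibitor of the pathway, Igtp (1.37), Cd274 (1.36), which encodes PD-L1, Cxcl10 (1.28), Gbp2 (1.28), Gbp7 (1.01) and Irgm1 (0.97), all as log2 fold changes. With 1 library left out, the adjusted p was over 0.05 for Irf1 (0.053 to 0.071 without replicate 9, 10 or 11), Socs1 (0.0503 to 0.061 without replicate 7 or 12), Cd274 (0.069 to 0.086 without replicate 7, 10 or 11), Cxcl10 (0.059 to 0.08 without replicate 7 or 10) and Gbp2 (0.056 to 0.071 without replicate 7, 10 or 11). A fit of day 23 and hour 0 alone gave 12 higher and 0 lower interferon-gamma-responsive genes, with an adjusted p over 0.05 (0.061 to 0.091) for Cd274 and Cxcl10.

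Several genes of the interferon-gamma-responsive list hold the same motifs near their start sites, so a window of 150 bases before the start is given for some of them (RefSeq, GRCm38.p6). Capitals mark the core of an interferon-stimulated response element (GAAANNGAAA), a gamma-activated site (TTCNNNGAA) and the Y box (ATTGG), each on either strand.
Tgtp2, chr11:49064213-49064362, minus strand: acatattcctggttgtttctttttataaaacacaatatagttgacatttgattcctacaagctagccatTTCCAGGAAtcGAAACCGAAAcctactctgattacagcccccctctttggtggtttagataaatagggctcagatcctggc
Igtp, chr11:58199406-58199555, plus strand: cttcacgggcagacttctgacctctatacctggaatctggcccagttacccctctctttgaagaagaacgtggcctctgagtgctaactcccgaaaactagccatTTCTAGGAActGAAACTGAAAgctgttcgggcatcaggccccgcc
Gbp2, chr3:142620513-142620662, plus strand: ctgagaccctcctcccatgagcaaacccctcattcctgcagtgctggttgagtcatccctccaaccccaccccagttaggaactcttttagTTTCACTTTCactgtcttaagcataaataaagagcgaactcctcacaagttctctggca
Irf1, chr11:53769864-53770013, plus strand: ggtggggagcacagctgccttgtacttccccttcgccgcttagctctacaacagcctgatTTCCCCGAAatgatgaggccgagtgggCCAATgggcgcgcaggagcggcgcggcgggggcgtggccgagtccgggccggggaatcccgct
In Tgtp2 and Igtp a gamma-activated site ends a pair of bases before the response element core. In Gbp2 the core lies on the other strand, and the Irf1 window holds a gamma-activated site and a Y box but no core. Within 250 bases before the start, the response element core was found in 10 of 13 (76.9%) promoters of the risen genes in the list, against 3.46% over all promoters and 3.21% over those of tested genes. The gamma-activated site was found in 6 of 13 (46.2%) of the same promoters, against 8.13% over all promoters. Over the whole list, risen or not, the core was found in 11 of 15 (73.3%) promoters and the gamma-activated site in 8 of 15 (53.3%). The shares thus describe the list, and a link between motif and rise was not tested. The motifs are letter matches, not measured binding.

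MHC class I presentation genes rose as a broad group. All 17 genes in the list were tested, 14 rose (82.4%, against 8.44% of all tested genes) and 0 fell. The median log2 fold change was 1.19. Their summed level was 7493, 6964 and 6106 CPM at day 23 and 2242, 2369 and 3268 CPM at hour 0. Library-total scaling left 12 higher, and subtraction of a background rate left 14 higher. Against day 8 0 were higher and 0 lower, with a median of -0.068, and the median against hour 3 was 0.27. Day 8 and hour 3 share the low background with day 23, and the part of the background in this rise was not tested. H2-K1 (ENSMUSG00000061232, GRCm38 chr17:33996017-34000347), a classical heavy chain, had 2097, 1616 and 1756 CPM at day 23, against 442, 519 and 786 CPM at hour 0. The lowest day 23 library was above the highest hour 0 library (1.65 ± 0.21, adjusted p = 4.1e-05). H2-D1, the other classical chain here, had 2278, 2414 and 1774 CPM at day 23 and 649, 697 and 932 CPM at hour 0 (1.51 ± 0.19, adjusted p = 3.3e-05). Psmb8 (ENSMUSG00000024338, GRCm38 chr17:34197721-34201454), a catalytic subunit of the immunoproteasome, had 119.8, 118 and 127 CPM at day 23 and 30.3, 30.9 and 56.1 CPM at hour 0 (1.63 ± 0.23, adjusted p = 8.3e-05), and its groups did not overlap. H2-Q7 had 171, 142 and 172 CPM at day 23 and 18.6, 21.4 and 48.3 CPM at hour 0 (2.45 ± 0.27, adjusted p = 7.1e-06), and H2-Q6 changed by 2.66 on the log2 scale. These Qa-2 chains are close copies of each other, and Balb/c reads were placed on a C57BL/6J reference, so how the reads split between them is uncertain. B2m (ENSMUSG00000060802, GRCm38 chr2:122147686-122153083), the shared light chain, had 1010.1, 1461 and 815 CPM at day 23 and 516, 481 and 662 CPM at hour 0 (0.99 ± 0.20, adjusted p = 0.0025). Nlrc5, which encodes the transactivator of class I genes, had 105, 52.0 and 92.8 CPM at day 23 and 21.2, 18.0 and 42.5 CPM at hour 0 (1.60 ± 0.34, adjusted p = 0.0037), also without overlap. The peptide transporter genes Tap1 (1.17) and Tap2 (0.68), the loading factor Tapbp (0.69), the immunoproteasome gene Psmb9 (1.19) and the Qa-1 gene H2-T23 (1.24) rose as well. The adjusted p was over 0.05 on leaving out 1 library for Tap2 (0.066 to 0.1 without replicate 7, 9, 10, 11 or 12). By library totals it was over 0.05 for Tap2 (0.18) and Tapbp (0.12). With day 23 and hour 0 alone in the fit there were 12 higher and 0 lower class I genes, with an adjusted p over 0.05 (0.068 to 0.094) for Tap2 and Tapbp.

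The B2m window holds a response element core and, nearer the start, a Y box.
B2m, chr2:122147537-122147686, plus strand: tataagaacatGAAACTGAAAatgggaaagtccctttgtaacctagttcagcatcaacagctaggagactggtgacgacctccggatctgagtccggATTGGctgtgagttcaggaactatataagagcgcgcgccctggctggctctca
H2-Aa, chr17:34287824-34287973, minus strand: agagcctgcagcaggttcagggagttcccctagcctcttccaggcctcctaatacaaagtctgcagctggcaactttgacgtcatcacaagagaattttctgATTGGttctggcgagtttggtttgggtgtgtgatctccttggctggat
H2-Eb1, chr17:34305717-34305866, plus strand: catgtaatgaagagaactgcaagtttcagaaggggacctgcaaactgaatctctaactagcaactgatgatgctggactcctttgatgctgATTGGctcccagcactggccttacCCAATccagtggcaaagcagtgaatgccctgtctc
The H2-Aa and H2-Eb1 windows, of the class II genes described next, hold the Y box with no response element core, and H2-Eb1 holds a further match on the other strand. The Y box lay within 250 bases before the start in 12 of 15 (80%) promoters of the class I list and 6 of 7 (85.7%) of the class II list, against 37.5% over all promoters. A match of 5 letters is frequent by its length alone, and the matches are a description.

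MHC class II genes had the highest median of any list with 5 or more tested genes. Of 10 genes in the list 8 were tested, 5 rose (62.5%, against 8.44% of all tested genes) and 0 fell. The median log2 fold change was 2.74. H2-Ab1 (ENSMUSG00000073421, GRCm38 chr17:34257689-34269419), a class II beta chain, had 87.7, 133 and 136 CPM at day 23, against 3.68, 11.0 and 16.5 CPM at hour 0 (3.51 ± 0.58, adjusted p = 0.00043). H2-Eb1, the other beta chain, had 35.8, 41.5 and 73.6 CPM at day 23 and 3.29, 5.55 and 5.78 CPM at hour 0 (3.36 ± 0.58, adjusted p = 0.00057). Cd74, the invariant chain that escorts class II molecules, had 123, 184 and 211 CPM at day 23 and 14.4, 22.6 and 39.3 CPM at hour 0 (2.75 ± 0.49, adjusted p = 0.00084). In all 3 genes every day 23 library lay above every hour 0 library. H2-Aa, the alpha chain, changed by 2.72, and Ctss, the protease cathepsin S that trims the invariant chain, by 2.98. Ciita, which encodes the class II transactivator, was not called (-0.33 ± 0.72, adjusted p = 0.79) and had 2.61, 4.49 and 8.46 CPM at day 23 and 3.98, 6.51 and 8.63 CPM at hour 0, so the groups overlapped. At day 8 the summed class II level was 918, 724 and 723 CPM, and at day 23 it was 326, 454 and 524 CPM, against 37.2, 65.1 and 92.6 CPM at hour 0. DESeq2 called Cd74 and Ctss and gave no adjusted p for H2-Ab1, H2-Eb1 and H2-Aa.

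Class II genes are strongly expressed by macrophages, dendritic cells and B cells, and some markers of those cells moved as well. Of 22 macrophage, monocyte and dendritic cell genes, 6 were tested, 2 rose (33.3%, against 8.44% of all tested genes) and 0 fell, with a median log2 fold change of 0.41. The summed level of the 22 genes was 126, 113 and 148 CPM at day 23 and 116, 143 and 109.6 CPM at hour 0, and 4 of them (Lyz1, Cd163, Xcr1 and Ccl22) had no count in any day 23 library. Ptprc, the leukocyte antigen CD45, had 24.8, 15.2 and 29.1 CPM at day 23 and 4.38, 11.3 and 6.87 CPM at hour 0 (1.61 ± 0.38, adjusted p = 0.0074). Lyz2, the macrophage lysozyme, had 18.1, 7.62 and 18.9 CPM at day 23 and 2.69, 4.22 and 4.19 CPM at hour 0 (1.98 ± 0.49, adjusted p = 0.01). Neither gene overlapped between groups, but Lyz2 passed the filter only through day 23, so its lack of overlap adds no support. Csf1r, the receptor for macrophage growth factor, was not called, with 5.05, 8.02 and 15.6 CPM at day 23 and 4.58, 6.03 and 6.54 CPM at hour 0 (0.71 ± 0.36, adjusted p = 0.2). How much of the class II RNA came from leukocytes was not tested. Without 1 of the 6 libraries, the adjusted p was over 0.05 for Lyz2 (0.051 without replicate 10).

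**Figure D2:**
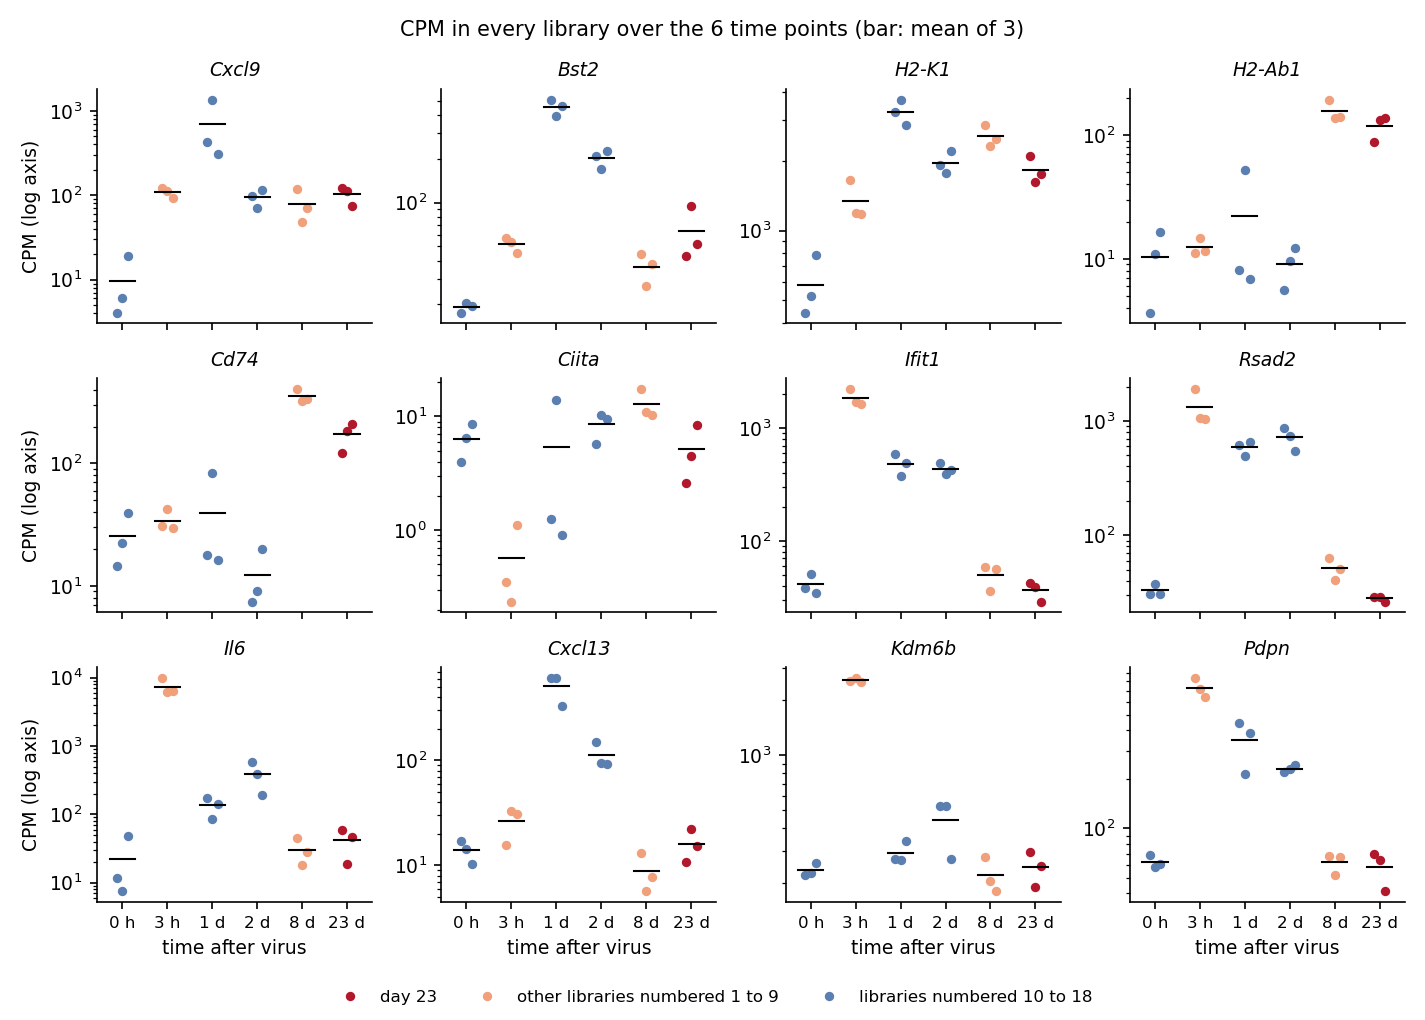
CPM of 12 genes (y axes, log scale) in every library at 6 time points (x axes), with day 23 in dark red, other libraries numbered 1 to 9 in orange and libraries numbered 10 to 18 in blue, and bars at the means. Cxcl9, Bst2, H2-K1, H2-Ab1 and Cd74 lay above their hour 0 libraries at day 23, while Ifit1, Rsad2, Kdm6b and Pdpn lay near them.

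Of 28 type I interferon-stimulated genes 26 were tested, 5 rose (19.2%, against 8.44% of all tested genes), 2 fell (7.69%, against 7.03%), and the median log2 fold change was 0.013. Scaling by library totals gave 2 higher and 4 lower, and without replicate 8 there were 2 and 2. Ifit1, an antiviral gene that binds foreign RNA, had 42.0, 39.1 and 28.9 CPM at day 23 and 38.2, 51.4 and 34.7 CPM at hour 0 (-0.17 ± 0.22, adjusted p = 0.66), and Rsad2, which encodes viperin, had 28.8, 29.1 and 26.3 CPM at day 23 and 30.8, 37.3 and 30.7 CPM at hour 0 (-0.22 ± 0.24, adjusted p = 0.56). Neither was called, and both were far higher 3 hours after the virus, at 1853 ± 326 CPM for Ifit1 and 1336 ± 499 CPM for Rsad2 (SD, n = 3). Among the members that rose was Bst2 (ENSMUSG00000046718, GRCm38 chr8:71534255-71537456), the membrane tether tetherin, which had 42.7, 95.1 and 52.1 CPM at day 23 and 17.6, 20.5 and 19.4 CPM at hour 0 (1.74 ± 0.24, adjusted p = 7.7e-05). Its day 23 libraries were all above its hour 0 libraries. Isg15 (0.93), Ifi44 (0.92) and Ifi27l2a (0.89) rose by less. Mx1, an antiviral GTPase, fell by 1.07 on the log2 scale with 8.47, 8.26 and 4.9 CPM at day 23 and 15.6, 18.6 and 12.7 CPM at hour 0, and Ifit2 fell by 0.71. On leaving out 1 library, the adjusted p was over 0.05 for Isg15 (0.062 to 0.24 without replicate 8, 10 or 11), Ifi44 (0.056 to 0.057 without replicate 8 or 11), Ifi27l2a (0.078 to 0.14 without replicate 8 or 10), Mx1 (0.055 to 0.087 without replicate 9, 10 or 11) and Ifit2 (0.051 to 0.13 without replicate 7, 9 or 10). Under library-total scaling it was over 0.05 for Isg15 (0.12), Ifi44 (0.061) and Ifi27l2a (0.055). The limma-voom method gave 4 higher and 0 lower type I genes, and did not call Isg15, Mx1 or Ifit2. Fitted alone, the groups compared gave 2 higher and 0 lower type I genes, with an adjusted p over 0.05 (0.11 to 0.25) for Isg15, Ifi44, Ifi27l2a, Mx1 and Ifit2.

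The windows of Bst2, which rose, and Ifit1, which was not called, both hold response element cores.
Bst2, chr8:71537473-71537622, minus strand: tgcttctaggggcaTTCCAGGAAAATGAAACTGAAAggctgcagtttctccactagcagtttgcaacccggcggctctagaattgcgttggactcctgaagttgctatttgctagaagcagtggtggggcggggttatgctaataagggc
Ifit1, chr19:34640739-34640888, plus strand: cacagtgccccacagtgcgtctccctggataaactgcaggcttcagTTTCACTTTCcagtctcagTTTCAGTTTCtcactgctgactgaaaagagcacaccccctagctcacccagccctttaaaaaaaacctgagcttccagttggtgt
The Bst2 window holds a gamma-activated site that runs into overlapping response element cores, and the Ifit1 window holds a pair of cores on the other strand. Across the list, the core was found in 9 of 20 (45%) promoters, and in 6 of 14 (42.9%) promoters of the members not called.

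Some inflammatory and NF-kB target genes rose. Of 26 genes 17 were tested, 6 rose (35.3%, against 8.44% of all tested genes), 0 fell, and the median log2 fold change was 0.66. Il1b, the cytokine interleukin-1 beta, had 14.8, 8.58 and 10.0 CPM at day 23 and 1.89, 1.57 and 0.251 CPM at hour 0 (3.20 ± 0.47, adjusted p = 0.00013). It passed the filter only through day 23, so its lack of overlap adds no support. Tnfaip3 (ENSMUSG00000019850, GRCm38 chr10:19000910-19015657), which encodes the NF-kB inhibitor A20, had 289, 71.6 and 160.4 CPM at day 23 and 42.2, 44.2 and 43.2 CPM at hour 0 (2.00 ± 0.36, adjusted p = 0.00081). Cxcl1, a neutrophil chemokine, had 121, 83.3 and 101 CPM at day 23 and 38.0, 24.9 and 42.1 CPM at hour 0 (1.54 ± 0.29, adjusted p = 0.0016). The groups did not overlap in either gene. Ccl7 (1.38), a monocyte chemokine, the inhibitor gene Nfkbia (0.91) and the survival gene Birc3 (0.75) rose too. Il6 was not called, and its 59.5, 18.6 and 47.2 CPM at day 23 overlapped its 11.8, 7.6 and 47.8 CPM at hour 0 (0.86 ± 0.55, adjusted p = 0.31). None of the 17 tested genes differed between day 23 and day 8 at an adjusted p under 0.05. Without 1 of the 6 libraries, the adjusted p was over 0.05 for Ccl7 (0.085 to 0.1 without replicate 7, 10 or 11) and Birc3 (0.056 to 0.15 without replicate 8, 9, 11 or 12). Scaled by library totals, it was over 0.05 for Birc3 (0.17). When day 23 and hour 0 were fitted alone, there were 4 higher and 0 lower inflammatory genes, with an adjusted p over 0.05 (0.068 to 0.12) for Ccl7 and Birc3.

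Lymphoid stromal genes organise lymphocytes in lymph nodes. Of 24 genes 16 were tested, 3 rose (18.8%, against 8.44% of all tested genes), 1 fell (6.25%, against 7.03%), and the median log2 fold change was 0.20. Tnfsf13b, which encodes the B cell survival factor BAFF, had 28.4, 15.5 and 24.0 CPM at day 23 and 6.77, 7 and 9.55 CPM at hour 0. Its groups did not overlap (1.53 ± 0.33, adjusted p = 0.0036), and it was also higher than at day 8 (1.23 ± 0.32, adjusted p = 0.016), where it had 11.8, 6.38 and 10.6 CPM. Cxcl13, the chemokine that attracts B cells, was not called (0.24 ± 0.35, adjusted p = 0.68), with 10.8, 22.1 and 15.1 CPM at day 23 and 17.1, 14.2 and 10.2 CPM at hour 0. The same held for Cxcl12 (0.39 ± 0.20, adjusted p = 0.18) and for the adhesion gene Vcam1 (0.69 ± 0.26, adjusted p = 0.08). Cyp7b1, an enzyme of oxysterol metabolism (0.77), and the receptor gene Il13ra1 (0.65) rose, and the TNF receptor gene Tnfrsf1a fell by 0.55. The lymph node chemokine genes Ccl19 and Ccl21a were under the filter. Library totals as the scale left 1 higher and 2 lower. The adjusted p was over 0.05 on leaving out 1 library for Cyp7b1 (0.056 to 0.18 without replicate 7, 9, 10, 11 or 12), Il13ra1 (0.059 to 0.15 without replicate 7, 8, 10, 11 or 12) and Tnfrsf1a (0.092 to 0.18 without replicate 8, 9, 10 or 11). Under library-total scaling it was over 0.05 for Cyp7b1 (0.21) and Il13ra1 (0.25). A fit of day 23 and hour 0 alone gave 1 higher and 0 lower lymphoid stromal genes, with an adjusted p over 0.05 (0.13 to 0.33) for Cyp7b1, Il13ra1 and Tnfrsf1a.

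Of the genes that write, read or erase methylation on histone H3 lysine 27, 13 of 14 were tested, 2 rose (15.4%, against 8.44% of all tested genes) and 0 fell. Kdm6b, which encodes the demethylase JMJD3, had 298, 190.2 and 249 CPM at day 23 and 223, 228 and 258 CPM at hour 0 (0.056 ± 0.22, adjusted p = 0.89), while it had 2552, 2642 and 2521 CPM at hour 3. Kdm6a (-0.024 ± 0.16, adjusted p = 0.94), another demethylase gene, and Ezh2 (0.089 ± 0.27, adjusted p = 0.86), the methyltransferase gene, were not called either. The Polycomb genes Eed (0.63) and Rbbp7 (0.56) rose slightly, and under scaling by library totals neither was called. On leaving out 1 library, the adjusted p was over 0.05 for Eed (0.0501 to 0.15 without replicate 8, 9, 10, 11 or 12) and Rbbp7 (0.088 to 0.1 without replicate 9 or 11). By library totals it was over 0.05 for Eed (0.22) and Rbbp7 (0.24). With day 23 and hour 0 alone in the fit there were 0 higher and 0 lower such genes, with an adjusted p over 0.05 (0.12 to 0.16) for Eed and Rbbp7.

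Complement genes were called mostly at the start of the classical pathway. Of 16 genes 12 were tested, 5 rose (41.7%, against 8.44% of all tested genes), 0 fell, and the median log2 fold change was 0.60. C1qb, a chain of the recognition molecule C1q, had 7.98, 7.38 and 15.8 CPM at day 23 and 1.19, 3.14 and 0.587 CPM at hour 0 (2.68 ± 0.51, adjusted p = 0.0015), and C1qc changed by 2.42. C1q is made chiefly by macrophages, whose marker values are given above, and the share from those cells was not tested. Cfb, factor B of the alternative pathway, had 8.47, 52.2 and 19.4 CPM at day 23 and 15.0, 11.0 and 7.88 CPM at hour 0 (1.30 ± 0.40, adjusted p = 0.034), and replicate 7 lay inside the hour 0 range. C3, the central component, was abundant in both groups and was not called, with 10004, 6623 and 6985 CPM at day 23 and 4083, 3761 and 5149.7 CPM at hour 0 (0.86 ± 0.30, adjusted p = 0.059). The protease genes C1ra (0.66) and C2 (0.54) rose. Of 4 acute-phase genes tested, Hp, which encodes haptoglobin, rose (1.08 ± 0.31, adjusted p = 0.024), and the other 3 were not called. With library totals as the scale, 2 complement genes rose. With 1 library left out, the adjusted p was over 0.05 for Cfb (0.096 to 0.64 without replicate 8, 11 or 12), C1ra (0.066 to 0.093 without replicate 10 or 11), C2 (0.089 to 0.18 without replicate 7, 9, 10, 11 or 12) and Hp (0.064 to 0.1 without replicate 9 or 12). Scaled by library totals, it was over 0.05 for Cfb (0.078), C1ra (0.17), C2 (0.35) and Hp (0.089). Fitted alone, the groups compared gave 2 higher and 0 lower complement genes, with an adjusted p over 0.05 (0.059 to 0.25) for Cfb, C1ra, C2 and Hp.

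All 30 matrix genes were tested, and 16.7% of them were called, near the 15.5% of all tested genes. Of these 1 rose (3.33%, against 8.44% of all), 4 fell (13.3%, against 7.03%), and the median log2 fold change was -0.12. Col1a1, the main fibrillar collagen chain, had 7521, 4566 and 5592 CPM at day 23 and 5707, 5095 and 4923 CPM at hour 0 (0.17 ± 0.22, adjusted p = 0.65) and its groups overlapped. Thbs2, the matricellular protein thrombospondin 2, had 655, 413 and 429 CPM at day 23 and 222, 221 and 256 CPM at hour 0 (1.10 ± 0.20, adjusted p = 0.00099). It was the one matrix gene that rose. Fbln2 (-0.91), an elastic fibre component, Vcan (-0.85), the proteoglycan versican, and the basement membrane laminin genes Lama2 (-0.65) and Lamb1 (-0.63) fell. Vcan had 109.8, 160.0 and 117 CPM at day 23 and 216, 226 and 258 CPM at hour 0. Of 19 tested remodelling genes 0 rose and 4 fell (21.1%, against 7.03% of all tested genes). These were the lysyl oxidase gene Loxl2 (-0.97), the urokinase gene Plau (-0.90), the protease gene Mmp19 (-0.70) and the inhibitor gene Timp3 (-0.55). Library-total scaling gave 1 higher and 7 lower matrix genes, without replicate 8 there were 1 and 2, and without replicate 9 the remodelling list had 1 lower. Without 1 of the 6 libraries, the adjusted p was over 0.05 for Fbln2 (0.052 without replicate 10), Lama2 (0.054 to 0.069 without replicate 8, 10 or 11), Lamb1 (0.11 to 0.15 without replicate 8, 9, 10 or 11), Loxl2 (0.062 to 0.11 without replicate 8, 9 or 10), Plau (0.059 without replicate 9) and Timp3 (0.069 to 0.17 without replicate 7, 9, 10, 11 or 12). When day 23 and hour 0 were fitted alone, there were 1 higher and 2 lower matrix genes and 0 higher and 2 lower remodelling genes, with an adjusted p over 0.05 (0.11 to 0.15) for Lama2, Lamb1, Loxl2 and Timp3.

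Resting fibroblast genes were mostly not called against hour 0, and most were higher than at day 8. All 22 were tested against hour 0, with 1 higher (4.55%), 4 lower (18.2%, against 7.03% of all tested genes) and a median log2 fold change of -0.013. Against day 8, 15 were higher, 0 lower and the median was 0.74, beside 7.16% of all tested genes that were higher and 6.68% that were lower than at day 8. Clec3b, which encodes tetranectin, had 395, 527 and 443 CPM at day 23, against 128, 109.6 and 189 CPM at day 8 (1.68 ± 0.21, adjusted p = 8.4e-05 against day 8). Its hour 0 libraries had 456, 370.1 and 444 CPM, a range the day 23 values overlapped (0.10 ± 0.20, adjusted p = 0.77). Every day 23 library of Clec3b lay above every day 8 library. Penk, which encodes proenkephalin, had 234, 199.8 and 201 CPM at day 23, 107, 77.0 and 71.3 CPM at day 8 and 206, 136 and 137 CPM at hour 0. Cd34, a surface marker of adventitial fibroblasts, had 272, 269 and 227 CPM at day 23, 114, 95.9 and 149.8 CPM at day 8 and 387, 315 and 413 CPM at hour 0. Neither gene was called against hour 0, and both were above day 8. Genes still below hour 0 were Fmod (-1.30), a collagen-binding proteoglycan, Smoc2 (-1.04), the transporter gene Abca8a (-0.88) and Igfbp6 (-0.75), which encodes a binder of insulin-like growth factor. Smoc2 had 547, 648 and 446 CPM at day 23, 244, 332 and 352 CPM at day 8 and 1276, 977 and 1120.4 CPM at hour 0, so its level at day 23 lay between those of day 8 and hour 0. Efemp1 was above hour 0 (0.58). Scaling by library totals gave 0 higher and 8 lower genes against hour 0. Day 23 against hour 0 and day 23 against day 8 share the day 23 libraries. The adjusted p was over 0.05 on leaving out 1 library for Igfbp6 (0.06 to 0.13 without replicate 7, 9 or 10) and Efemp1 (0.083 to 0.12 without replicate 7, 10 or 11). By library totals it was over 0.05 for Efemp1 (0.26). A fit of day 23 and hour 0 alone gave 0 higher and 4 lower resting fibroblast genes, with an adjusted p over 0.05 (0.12) for Efemp1.

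**Figure D3:**
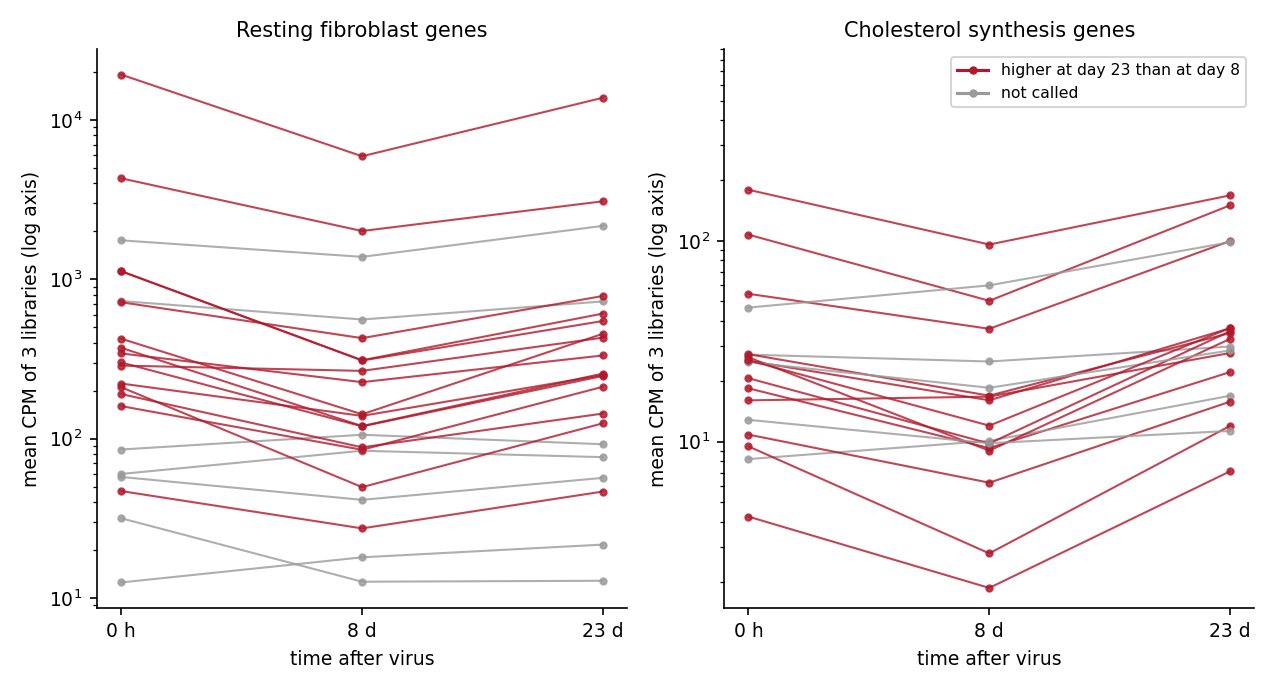
Mean CPM of 3 libraries (y axes, log scale) of each tested resting fibroblast gene (left) and cholesterol synthesis gene (right) at hour 0, day 8 and day 23. Red lines mark genes higher at day 23 than at day 8 at an adjusted p under 0.05, namely 15 of 22 on the left and 13 of 18 on the right.

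Of 21 tested receptor and transcription factor genes that mark fibroblasts 0 rose and 1 fell (4.76%, against 7.03% of all tested genes), namely Twist2, with 1.79, 2.33 and 2.67 CPM at day 23, 2.67, 1.78 and 1.97 CPM at day 8 and 8.36, 5.19 and 5.95 CPM at hour 0 (-1.53 ± 0.37, adjusted p = 0.0095). Library totals as the scale gave 4 lower, as did leaving out replicate 7. Among 29 tested growth signals 3 rose (10.3%, near the 8.44% of all tested genes) and 4 fell (13.8%, against 7.03%). Sfrp1, a secreted Wnt antagonist, had 238, 152 and 163 CPM at day 23 and 74.8, 70.2 and 93.3 CPM at hour 0 (1.21 ± 0.25, adjusted p = 0.0033). Hgf (0.82), hepatocyte growth factor, and Dkk3 (0.74) also rose. Nrg1 (-1.95), a ligand of ErbB receptors, Bmp4 (-1.21) and Wnt11 (-1.02) fell. Bmp4 had 36.8, 30.3 and 24.0 CPM at day 23 and 82.9, 69.9 and 58.7 CPM at hour 0, so that all day 23 libraries lay below all hour 0 libraries. With library totals as the scale, 1 growth signal rose and 5 fell. With 1 library left out, the adjusted p was over 0.05 for Hgf (0.061 to 0.1 without replicate 9, 11 or 12) and Wnt11 (0.068 to 0.13 without replicate 8, 9, 10 or 12). Under library-total scaling it was over 0.05 for Hgf (0.15) and Dkk3 (0.065). With day 23 and hour 0 alone in the fit there were 0 higher and 0 lower receptor and transcription factor genes and 1 higher and 2 lower growth signal genes, with an adjusted p over 0.05 (0.053 to 0.16) for Twist2, Hgf, Dkk3, Nrg1 and Wnt11.

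Several genes of contractile cells fell. Of 11 tested 0 rose and 5 fell (45.5%, against 7.03% of all tested genes), and the median log2 fold change was -0.76. The summed level was 1021, 1588 and 1127 CPM at day 23 and 2651, 2193 and 1646 CPM at hour 0. Tagln (ENSMUSG00000032085, GRCm38 chr9:45929619-45936058), which encodes the actin-binding protein transgelin, had 3.91, 19.6 and 7.34 CPM at day 23 and 85.3, 64.9 and 35.8 CPM at hour 0 (-2.51 ± 0.41, adjusted p = 0.00033). Acta2, smooth muscle actin, had 11.4, 119.7 and 59.0 CPM at day 23 and 268, 227 and 166 CPM at hour 0 (-1.78 ± 0.46, adjusted p = 0.013), and Myh11, smooth muscle myosin, had 69.6, 422 and 214 CPM at day 23 and 926, 713 and 479.7 CPM at hour 0 (-1.58 ± 0.41, adjusted p = 0.012). Replicate 7 was the lowest library in each of the 3 genes, and no day 23 value reached the hour 0 range. Cnn1 (-1.93) and Smtn (-0.76) fell as well. These genes are shared by myofibroblasts, vessel muscle and the gland's myoepithelial cells. Krt14, a keratin of the myoepithelium, was not called, with 29.7, 80.9 and 31.8 CPM at day 23 and 108, 104 and 119 CPM at hour 0 (-1.19 ± 0.47, adjusted p = 0.094), although no day 23 library reached the hour 0 range. Of 8 tested mural cell genes 1 rose (12.5%, against 8.44% of all tested genes) and 2 fell (25%, against 7.03%). Notch3 was higher (1.42 ± 0.26, adjusted p = 0.00083), and Mcam (-1.45) and Heyl (-0.95) were lower. Library-total scaling gave 7 lower contractile genes and 4 lower mural genes, and without replicate 8 there were 8 lower contractile genes. Without 1 of the 6 libraries, the adjusted p was over 0.05 for Myh11 (0.061 without replicate 10), Cnn1 (0.08 to 0.12 without replicate 9, 10 or 11), Mcam (0.11 to 0.29 without replicate 7, 8 or 12) and Heyl (0.062 to 0.09 without replicate 8, 9, 10 or 11). Fitted alone, the groups compared gave 0 higher and 2 lower contractile genes and 1 higher and 0 lower mural genes, with an adjusted p over 0.05 (0.069 to 0.2) for Acta2, Myh11, Cnn1, Mcam and Heyl.

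Several glial genes fell as well. Of 8 tested genes of Schwann cells and glia 0 rose and 4 fell (50%, against 7.03% of all tested genes), with a median log2 fold change of -0.69. Gfra3, the receptor for the nerve factor artemin, had 0.489, 0.882 and 0.89 CPM at day 23 and 14.9, 15.9 and 10.1 CPM at hour 0 (-4.13 ± 0.49, adjusted p = 1.5e-05). Every day 23 library lay far below the hour 0 range, but Gfra3 passed the filter only through hour 0, so this adds no support. Cdh19 (-0.93) and Gfap (-2.28) fell. Gfap also passed the filter only through hour 0, so the share of 50% rests in part on genes admitted through that group. With a background rate subtracted, and likewise under limma-voom, 3 glial genes were lower and Gfap was not called. At day 8 Gfra3 had 6.95, 11.0 and 8.03 CPM, which is above day 23 (-3.48 ± 0.49, adjusted p = 0.0003). Of the few tested genes of other cells, Reln (-2.24) of the lymphatic endothelium list, Plin4 (-3.05) of the adipocyte list and the muscle genes Ttn (-4.20) and Ryr1 (-5.65) fell. Ttn had 3.58, 1.44 and 7.12 CPM at day 23 and 63.8, 85.5 and 47.3 CPM at hour 0, and the low-background day 8 libraries had 4.89, 5.78 and 5.29 CPM. Ryr1 likewise had 0, 0.401 and 0 CPM at day 23, 10.3, 16.3 and 6.2 CPM at hour 0 and 0.0764, 0.0741 and 0.211 CPM at day 8. Plin4 had 0, 0.882 and 2.23 CPM at day 23, 6.87, 10.6 and 6.45 CPM at hour 0 and 0.534, 0.89 and 0.775 CPM at day 8. Ttn, Ryr1 and Plin4 were thus high in the high-background group alone of these groups, and the part of the background in their falls was not tested. The 8 lymphatic endothelium genes summed to 24.1, 26.6 and 19.8 CPM at day 23, 59.9, 70.9 and 57.4 CPM at hour 0 and 31.9, 32.6 and 29.4 CPM at day 8. Of the 2 tested, 0 were lower than at day 8, and the part of the background in the fall of Reln was not tested either. Gfap also overlapped between day 23 and day 8, where it had 2.67, 1.85 and 0.564 CPM, with 0, 1.36 and 3.12 CPM at day 23 and 6.47, 6.88 and 6.87 CPM at hour 0. The blood endothelium list had 6 tested genes, of which 0 rose and 0 fell. The adjusted p was over 0.05 on leaving out 1 library for Gfap (0.07 to 0.13 without replicate 7, 8, 10, 11 or 12). When day 23 and hour 0 were fitted alone, there were 0 higher and 3 lower glial genes, with an adjusted p over 0.05 (0.13) for Gfap.

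**Figure D4:**
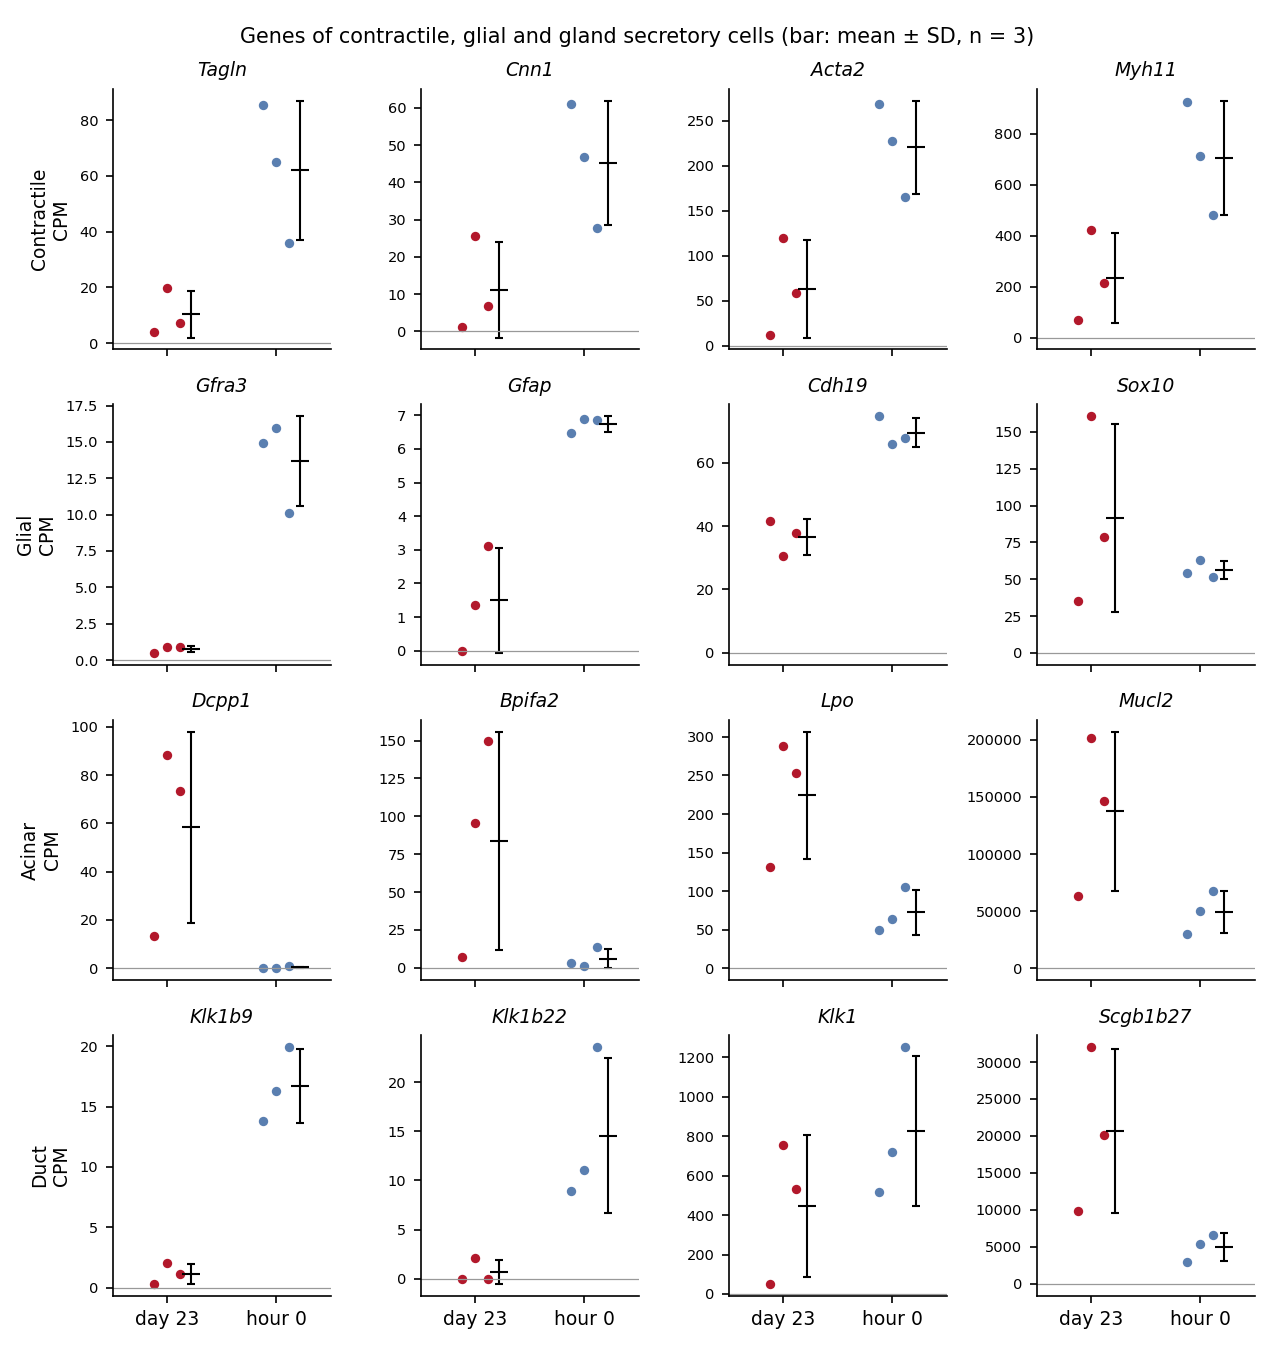
CPM (y axes) of 4 contractile, 4 glial, 4 acinar and 4 duct genes in each library of day 23 (left, red) and hour 0 (right, blue), with the mean and SD of 3 libraries beside the points. The contractile genes, Gfra3, Gfap and the kallikreins Klk1b9 and Klk1b22 lay lower at day 23, and Dcpp1, Lpo and Scgb1b27 lay higher.

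Several acinar genes of the gland rose. Of 23 acinar genes 15 were tested, 9 rose (60%, against 8.44% of all tested genes) and 0 fell. The median log2 fold change was 1.48. Their summed level was 75717, 228175 and 169040.0 CPM at day 23 and 34890.1, 58563 and 77678 CPM at hour 0, an overlap at replicates 7 and 12. Dcpp1, a secreted protein of demilune and parotid cells, had 13.2, 88.2 and 73.4 CPM at day 23 and 0, 0 and 0.67 CPM at hour 0 (7.76 ± 1.08, adjusted p = 7.2e-05). Bpifa2, a parotid secretory protein, had 7.01, 95.3 and 149.5 CPM at day 23 and 3.39, 1.45 and 13.6 CPM at hour 0 (3.71 ± 0.73, adjusted p = 0.002), where replicate 7 lay inside the hour 0 range. Under limma-voom Bpifa2 was not called. Lpo, the salivary lactoperoxidase, had 132, 288 and 253 CPM at day 23 and 49.2, 63.7 and 105 CPM at hour 0 (1.62 ± 0.36, adjusted p = 0.0044), without overlap. Bhlha15 (1.79), which encodes the secretory cell factor MIST1, Pip (1.63), the water channel gene Aqp5 (1.52), Car6 (1.52) and Slc12a2 (1.12) rose. Mucl2, a secreted mucin-like protein, was not called, with 63335, 201885 and 146741 CPM at day 23 and 30038, 50396 and 67296 CPM at hour 0 (1.48 ± 0.55, adjusted p = 0.071). Scaling by library totals gave 8 higher and 1 lower acinar genes, and leaving out replicate 8 gave 3 higher and 1 lower. With 1 library left out, the adjusted p was over 0.05 for Bhlha15 (0.06 to 0.12 without replicate 8 or 10), Pip (0.055 to 0.17 without replicate 8, 9, 10, 11 or 12), Aqp5 (0.062 to 0.077 without replicate 8, 10 or 11), Car6 (0.068 to 0.13 without replicate 8, 9, 10 or 11) and Slc12a2 (0.052 to 0.092 without replicate 8, 9, 10 or 11). A fit of day 23 and hour 0 alone gave 6 higher and 0 lower acinar genes, with an adjusted p over 0.05 (0.059 to 0.072) for Bhlha15 and Slc12a2.

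The summed level of 26 duct genes was 13123, 37439 and 25314 CPM at day 23 and 4872, 8528 and 11042 CPM at hour 0, higher in every day 23 library, and Scgb1b27 gave more than the other 25 together in each library. Of the 26, 12 were tested, 1 rose (8.33%, near the 8.44% of all tested genes) and 6 fell (50%, against 7.03%). The median log2 fold change was -1.59. Among the falls were kallikreins, which the granular ducts of the mouse submandibular gland make. Klk1b9 had 0.326, 2.01 and 1.11 CPM at day 23 and 13.8, 16.3 and 19.9 CPM at hour 0 (-3.72 ± 0.81, adjusted p = 0.0041), and Klk1b22 had 0, 2.09 and 0 CPM at day 23 and 8.96, 11.1 and 23.5 CPM at hour 0 (-3.96 ± 1.11, adjusted p = 0.02). No day 23 library reached an hour 0 library in either gene. Both passed the filter only through hour 0, so this lack of overlap adds no support. Under limma-voom Klk1b9 was not called. Klk1b26 (-2.47), Klk1b21 (-3.19) and Klk1b4 (-2.85) fell too, and reads may be split among these near copies. Klk1, the tissue kallikrein gene, was not called, with 51.3, 757 and 534 CPM at day 23 and 515, 719.6 and 1253 CPM at hour 0 (-0.89 ± 0.66, adjusted p = 0.39). Scgb1b27, a secretoglobin, rose, with 9826, 32013 and 20174 CPM at day 23 and 2926, 5404 and 6671 CPM at hour 0 (2.05 ± 0.58, adjusted p = 0.022). Without replicate 7 there were 3 lower duct genes, and without replicate 9 there were 2. Without 1 of the 6 libraries, the adjusted p was over 0.05 for Klk1b22 (0.06 to 0.066 without replicate 9 or 12), Klk1b26 (0.064 to 0.15 without replicate 7, 9, 10, 11 or 12), Klk1b21 (0.052 to 0.084 without replicate 7, 9, 11 or 12), Klk1b4 (0.051 to 0.12 without replicate 7, 9, 10, 11 or 12) and Scgb1b27 (0.068 to 0.099 without replicate 8, 10 or 11). With day 23 and hour 0 alone in the fit there were 2 higher and 3 lower duct genes, with an adjusted p over 0.05 (0.059 to 0.098) for Klk1b26, Klk1b21 and Klk1b4.

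Of 17 tested epithelial and myoepithelial genes 7 rose (41.2%, against 8.44% of all tested genes) and 0 fell relative to hour 0. Lower than at day 8 were 15 of them, beside 6.68% of all tested genes. Krt8, a keratin of simple epithelia, had 217, 365 and 281 CPM at day 23, 812, 827 and 627 CPM at day 8 and 45.1, 46.9 and 85.2 CPM at hour 0 (2.28 ± 0.30, adjusted p = 4.5e-05 against hour 0). Its level at day 23 thus lay between day 8 and hour 0. Krt18 (1.91), the partner of Krt8, the tight junction gene Cldn3 (1.48), the adhesion genes Epcam (1.22) and Cdh1 (0.63) and the transcription factor genes Elf3 (1.18) and Ehf (1.16) rose against hour 0. Library totals as the scale gave 4 higher and 1 lower, without replicate 8 the counts were 3 and 1, and without replicate 9 they were 4 and 0. The adjusted p was over 0.05 on leaving out 1 library for Cldn3 (0.1 to 0.13 without replicate 8 or 10), Epcam (0.095 to 0.15 without replicate 8, 9, 10 or 11), Cdh1 (0.13 to 0.16 without replicate 8, 9, 10 or 11) and Elf3 (0.061 to 0.22 without replicate 8, 9, 10 or 11). Under library-total scaling it was over 0.05 for Epcam (0.065), Cdh1 (0.21) and Elf3 (0.06). Fitted alone, the groups compared gave 3 higher and 1 lower epithelial genes, with an adjusted p over 0.05 (0.061 to 0.14) for Cldn3, Epcam, Cdh1 and Elf3.

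Lymphocyte genes were nearly all too low to test. None of 19 T and NK cell genes passed the filter, and their summed level was 25.1, 36.4 and 32.7 CPM at day 23 and 17.4, 32.8 and 17.7 CPM at hour 0. No neutrophil or erythroid gene passed it either. Of 22 B and plasma cell genes 3 were tested, and Ighm, the heavy chain of IgM, rose (4.39 ± 1.07, adjusted p = 0.0092). It had 3.58, 14.0 and 148 CPM at day 23 and 0.398, 0.241 and 6.7 CPM at hour 0, so replicate 9 carried most of the counts and replicate 7 lay inside the hour 0 range. Sdc1, which encodes the plasma cell and epithelial marker syndecan 1, was not called (0.23 ± 0.22, adjusted p = 0.52). The summed level of the 22 genes was 80.8, 102 and 259 CPM at day 23 and 71.7, 69.6 and 88.5 CPM at hour 0. On leaving out 1 library, the adjusted p was over 0.05 for Ighm (0.2 without replicate 9). When day 23 and hour 0 were fitted alone, there were 0 higher and 0 lower B and plasma cell genes, with an adjusted p over 0.05 (0.06) for Ighm.

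Many genes of protein folding rose. Of 16 tested heat-shock genes 10 rose (62.5%, against 8.44% of all tested genes) and 0 fell, with a median log2 fold change of 0.72. Hsp90aa1, the inducible HSP90, had 538, 749 and 645 CPM at day 23 and 264, 199 and 405 CPM at hour 0 (1.15 ± 0.22, adjusted p = 0.0013). Hspe1, the mitochondrial chaperonin partner, had 40.6, 108 and 73.4 CPM at day 23 and 20.7, 14.1 and 33.2 CPM at hour 0 (1.70 ± 0.28, adjusted p = 0.0004). The groups did not overlap in either gene, and the near copies Hspa1a (1.36) and Hspa1b (1.73) rose. Of 21 tested genes of the unfolded protein response 8 rose (38.1%, against 8.44% of all tested genes) and 0 fell. The rises were led by Sdf2l1 (1.43), Ddit3 (1.09), which encodes CHOP, and Herpud1 (0.93). Manf, a secreted factor of the endoplasmic reticulum, had 106, 99.8 and 83.9 CPM at day 23 and 50.7, 54.2 and 51.5 CPM at hour 0 (0.89 ± 0.15, adjusted p = 0.00039). Of 26 tested immediate-early genes 3 rose (11.5%, against 8.44% of all tested genes) and 0 fell, namely Dusp5 (1.95), Atf3 (0.99) and Myc (0.81), while Fos (0.23 ± 0.23, adjusted p = 0.54) was not called. Library-total scaling left 5 higher heat-shock genes and gave 4 higher and 1 lower genes of the unfolded protein response, and without replicate 8 that list had 1 higher. With a background rate subtracted, 10 heat-shock and 4 unfolded protein response genes were higher. Against hour 3, whose libraries share the low background, the medians of these lists were -0.22 and -0.054. Against day 8, also of low background, they were 0.35 and 0.15. The part of the background in these rises was not tested. The immediate-early list had 1 higher and 1 lower by library totals, and 1 higher without replicate 9. With 1 library left out, the adjusted p was over 0.05 for Sdf2l1 (0.06 to 0.1 without replicate 8 or 10), Ddit3 (0.061 to 0.14 without replicate 8 or 10), Herpud1 (0.064 without replicate 8), Atf3 (0.0502 to 0.093 without replicate 8, 9, 10 or 11) and Myc (0.055 to 0.1 without replicate 9, 10 or 11). Scaled by library totals, it was over 0.05 for Atf3 (0.053) and Myc (0.12). A fit of day 23 and hour 0 alone gave 8 higher and 0 lower heat-shock genes, 1 higher and 0 lower unfolded protein response genes and 2 higher and 0 lower immediate-early genes, with an adjusted p over 0.05 (0.064 to 0.11) for Sdf2l1, Ddit3, Herpud1 and Myc.

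In metabolism, 18 cholesterol synthesis genes were tested, of which 3 rose (16.7%, against 8.44% of all tested genes) and 0 fell against hour 0. Their median log2 fold change was 0.51. Against day 8, 13 were higher and 0 lower, with a median of 1.23, beside 7.16% of all tested genes that were higher than at day 8. Sqle, squalene epoxidase, had 27.4, 35.7 and 34.5 CPM at day 23, 9.31, 7.27 and 10.5 CPM at day 8 and 24.9, 27 and 27.1 CPM at hour 0. It was above day 8 and not called against hour 0. Insig1 (1.08), which holds back sterol synthesis, Hmgcs1 (0.87) and Lss (0.78) rose against hour 0. Of 18 tested glycolysis and hypoxia genes 4 rose (22.2%, against 8.44% of all tested genes). They were led by Hk2, the inducible hexokinase (1.42 ± 0.23, adjusted p = 0.00039), with Pfkfb3 (0.84), Vegfa (0.73) and Tpi1 (0.66). Of 14 tested redox genes 4 rose (28.6%, against the same 8.44%), led by Hmox1, heme oxygenase (1.27 ± 0.25, adjusted p = 0.0023). Hmox1 had 47.4, 46.0 and 33.8 CPM at day 23 and 19.9, 13.8 and 19.2 CPM at hour 0. No member of either list fell. Of 15 tested cell cycle genes 0 were higher than at hour 0, against 8.44% of all tested genes. Lower was 1 (6.67%, near the 7.03% of all tested genes), namely Cenpf (-2.05 ± 0.43, adjusted p = 0.0033). Mki67, the proliferation marker, had 12.4, 14.0 and 20.7 CPM at day 23, 130.4, 171 and 104 CPM at day 8 and 8.56, 13.1 and 24.3 CPM at hour 0. It was below day 8 (-3.12 ± 0.33, adjusted p = 3.1e-05), as were 12 of the 15 genes, beside 6.68% of all tested genes. Of 18 tested clock genes 2 rose (11.1%, near the 8.44% of all tested genes), namely Nfil3 (1.03) and Bhlhe40 (0.66). Per2 fell (-1.36), which makes 5.56% lower, near the 7.03% of all tested genes. With library totals as the scale, the counts of higher and lower genes were 1 and 0 for cholesterol synthesis, 1 and 0 for glycolysis, 1 and 2 for redox, 0 and 3 for cell cycle and 1 and 3 for clock genes. Without replicate 9, 2 glycolysis genes rose. Without 1 of the 6 libraries, the adjusted p was over 0.05 for Hmgcs1 (0.057 to 0.1 without replicate 7, 10 or 11), Lss (0.066 to 0.08 without replicate 9 or 10), Pfkfb3 (0.079 to 0.12 without replicate 7, 9, 10, 11 or 12), Vegfa (0.057 to 0.061 without replicate 9 or 10), Tpi1 (0.072 to 0.13 without replicate 8, 10 or 11), Nfil3 (0.064 to 0.076 without replicate 8 or 10) and Bhlhe40 (0.064 without replicate 10). Under library-total scaling it was over 0.05 for Hmgcs1 (0.072), Lss (0.097), Pfkfb3 (0.15), Vegfa (0.087), Tpi1 (0.2) and Bhlhe40 (0.12). With day 23 and hour 0 alone in the fit there were 1 higher and 0 lower cholesterol synthesis genes, 1 higher and 0 lower glycolysis genes, 2 higher and 0 lower redox genes, 0 higher and 1 lower cell cycle genes and 1 higher and 0 lower clock genes, with an adjusted p over 0.05 (0.056 to 0.13) for Hmgcs1, Lss, Pfkfb3, Vegfa, Tpi1, Bhlhe40 and Per2.

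Many mitochondrial and ribosomal genes rose, and the size of the change varied with exon length over all genes. Of 25 tested oxidative phosphorylation genes 7 rose, of 8 tested mitochondrially encoded genes 6 rose, and of 77 tested cytosolic ribosomal protein genes 26 rose, with no falls in any of the 3 lists. Across all tested genes the median log2 fold change against hour 0 was 1.39 under 500 bases of exon, 0.59 at 500 to 1000 bases and 0.31 at 1000 to 2000 bases, but -0.051 over 8000 bases. The share of genes that rose was 54.1% under 500 bases and 4.49% over 8000 bases. Against day 8 the median under 500 bases was 0.51, and against hour 3 it was 0.27. In the same length classes as their members, 17.5% of tested genes rose for the oxidative phosphorylation list, 26.8% for the mitochondrially encoded list and 17.4% for the ribosomal list. For the interferon-gamma list that share was 7.9%, and for the class I list it was 11.2%. Against day 8, 1 ribosomal gene was higher and 19 were lower, and for oxidative phosphorylation 0 were higher and 6 lower. Of all tested genes 7.16% were higher and 6.68% lower than at day 8. Scaling by library totals left 1 oxidative phosphorylation gene and 11 ribosomal genes higher, with 1 ribosomal gene lower. Without replicate 9, 4 oxidative phosphorylation genes rose. With a background rate subtracted, 4 oxidative phosphorylation, 5 mitochondrially encoded and 22 ribosomal genes rose. Without replicate 8, 0 oxidative phosphorylation genes, 1 mitochondrially encoded gene and 6 ribosomal genes rose, and without replicate 7 the first and last counts were 13 and 40. Whether exon length accounts for these rises was not tested. Fitted alone, the groups compared gave 0 higher and 0 lower oxidative phosphorylation genes, 1 higher and 0 lower mitochondrially encoded genes and 6 higher and 0 lower ribosomal genes.

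**Figure D5:**
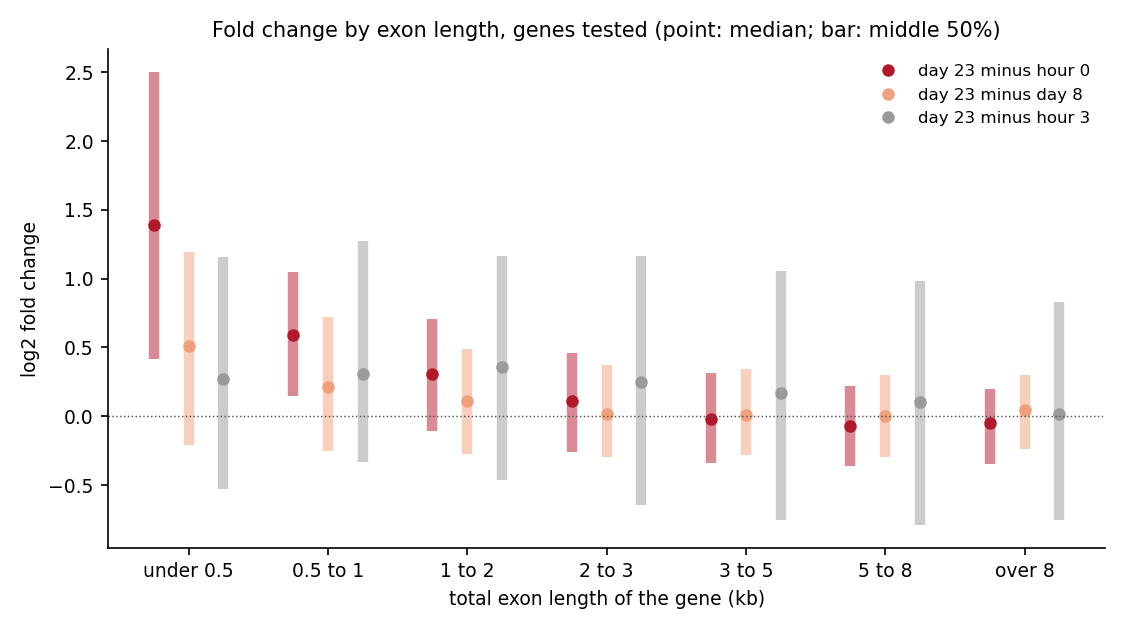
Log2 fold change of tested genes (y axis) in 7 classes of total exon length in kb (x axis) for day 23 relative to hour 0, day 8 and hour 3, with points at medians and bars over the middle 50% of genes. The median relative to hour 0 is 1.39 in the shortest class and near 0 above 3 kb.

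Among genes with a mean of at least 20 CPM in the higher group and no overlap, the 10 largest rises were those of Dcpp1 (7.76), Wfdc18 (5.30), Vaultrc5 (5.10), Snora21 (5.09), Mup5 (4.56), Snora23 (4.43), mt-Nd3 (3.64), H2-Ab1 (3.51), Cxcl9 (3.39) and H2-Eb1 (3.36), as log2 fold changes. Wfdc18, a secreted protease inhibitor, had 98.4, 302 and 243 CPM at day 23, 386, 375 and 253 CPM at day 8 and 1.49, 5.31 and 9.22 CPM at hour 0. Mup5, a major urinary protein with close copies, had 79.0, 107 and 95.0 CPM at day 23, 137, 105 and 121 CPM at day 8 and 0.697, 5.43 and 5.78 CPM at hour 0. Both stood far above their hour 0 levels at day 8 as well. Day 8 shares the low background with day 23, and the part of the background in the rises of Wfdc18 and Mup5 was not tested. The small RNA genes Snora21, Snora23 and Vaultrc5 and the transcript of mt-Nd3 all belong to the shortest length class. The 10 largest falls were those of Mroh2a (-5.13), Ttn (-4.20), Kcna1 (-4.12), Aatk (-3.93), Megf6 (-3.01), Ptprz1 (-2.57), Tagln (-2.51), Klk1b26 (-2.47), L1cam (-2.46) and Adra2c (-2.38). Dcpp1 passed the filter only through day 23, and Mroh2a, Kcna1, Aatk, Megf6 and Ptprz1 only through hour 0. The lack of overlap in these genes adds no support. Kcna1, a potassium channel gene, had 0.489, 1.6 and 1.78 CPM at day 23, 8.4, 6.52 and 5.57 CPM at day 8 and 18.6, 34.6 and 15.8 CPM at hour 0, and L1cam, an adhesion gene of nerves and glia, had 2.44, 6.1 and 2.67 CPM at day 23, 14.0, 12.5 and 14.4 CPM at day 8 and 16.1, 23.3 and 27.5 CPM at hour 0. Both were also below day 8, within the libraries of low background. Mroh2a had 0.652, 0.16 and 2.23 CPM at day 23, 0.0764, 0.222 and 0.846 CPM at day 8 and 22.7, 42.3 and 17.3 CPM at hour 0, and was thus high in the high-background group alone of these 3. With 1 library left out, the adjusted p was over 0.05 for Klk1b26 (0.064 to 0.15 without replicate 7, 9, 10, 11 or 12). With these groups fitted alone the adjusted p was over 0.05 (0.098) for Klk1b26.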

How the data were processed

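RNA-seq read counts per gene were deposited for 18 libraries. The submitters' processing notes name FastQC, STAR, Subread, DESeq2 and the mm10 build; the versions, the strand setting and the treatment of multi-mapping reads are not given in the sources used here, so values of close paralogs and overlapping genes are uncertain. Of 55401 gene IDs, 55141 matched the GENCODE M21 annotation (GRCm38), from which symbols, coordinates and exon lengths were taken, and 260 did not.

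The counts as deposited were fitted over all 18 libraries with edgeR 4.0.16 in R 4.3.3 (quasi-likelihood test, TMM scaling, 12 residual degrees of freedom), and p-values were adjusted by Benjamini-Hochberg over the 11273 genes with at least 5 CPM in at least 3 of the 6 libraries of day 23 and hour 0. Day 23 against day 8 came from the same fit. Shares of counts were compared with exact permutation tests, two-sided, from scipy 1.17.1, whose lowest possible p with 3 libraries a group is 0.1. In counts simulated from these libraries, the fit recovered 51 of 100 genes changed by 1 on the log2 scale. The fit recovered 94 of 100 changed by 2, and called 0.0452% of the unchanged genes. Whether these rates hold with the observed background difference and variation with exon length was not tested.

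The groups came from the sample titles, and each library is labelled as its own mouse. No pair of replicates agreed within counting noise, with a lowest chi-square per degree of freedom of 4.96. The genes named are the 10 largest rises and 10 largest falls among called genes with no overlap and a mean of at least 20 CPM in the higher group (predicted genes, pseudogenes and antigen receptor segments left out), up to 4 called members with the largest changes in each of 41 gene lists, the 5 genes with most counts in each group, and 10 genes always shown. Other genes were named after their values were seen. The comparison, the lists and the always-shown genes were chosen with earlier results of these data known. The sequence windows are from the RefSeq promoter table of GRCm38.p6. Alternatives were DESeq2 1.42.0 and voom in limma 3.58.1, other scalings, filters and sets of libraries, and subtraction of a background rate. The day 23 against hour 3 contrast and the classes of exon length were added after seeing the data. Some members of the lists are counted but not reported by name here.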

Additional observations from a re-analysis of the deposited data

Results flagged for a closer look

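For 9 of the 20 genes with the largest rises and falls, the departure from hour 0 differed between day 23 and day 8. The test was edgeR's quasi-likelihood test of day 23 against day 8 in the same fit, with Benjamini-Hochberg adjustment. Of all tested genes, 13.8% differed between day 23 and day 8. The 20 genes were picked by their extreme day 23 values, which also enter this test. That choice favours a larger departure at day 23, so the count of 9 is a description only. The genes further from hour 0 at day 23 on the low side were Kcna1, L1cam, Aatk, Megf6, Ptprz1 and Tagln. Of these, Kcna1, Aatk, Megf6 and Ptprz1 passed the filter only through hour 0. Kcna1 had 0.489, 1.6 and 1.78 CPM at day 23 and 8.4, 6.52 and 5.57 CPM at day 8, a log2 difference of -2.37 (adjusted p = 0.0012). The adhesion gene L1cam had 2.44, 6.1 and 2.67 CPM at day 23 and 14.0, 12.5 and 14.4 CPM at day 8, a log2 difference of -1.76 (adjusted p = 0.0019). Aatk had 3.58, 0.481 and 0 CPM at day 23 and 8.17, 6.82 and 5.99 CPM at day 8, a log2 difference of -2.41 (adjusted p = 0.013). Megf6 had 4.07, 5.13 and 1.11 CPM at day 23 and 16.3, 15.5 and 19.4 CPM at day 8, a log2 difference of -2.21 (adjusted p = 0.005). The phosphatase gene Ptprz1 had 0.815, 5.05 and 4.45 CPM at day 23 and 13.4, 12.2 and 13.0 CPM at day 8, a log2 difference of -1.86 (adjusted p = 0.045). The contractile gene Tagln had 3.91, 19.6 and 7.34 CPM at day 23 and 36.8, 57.2 and 48.0 CPM at day 8, a log2 difference of -2.12 (adjusted p = 0.0022). On the high side were Dcpp1, Snora21 and mt-Nd3. The secretory gene Dcpp1 had 13.2, 88.2 and 73.4 CPM at day 23 and 18.7, 2.97 and 5.29 CPM at day 8, a log2 difference of 2.70 (adjusted p = 0.021). The small nucleolar RNA gene Snora21 had 64.4, 397 and 267 CPM at day 23 and 81.1, 104 and 112 CPM at day 8, a log2 difference of 1.30 (adjusted p = 0.025). The mitochondrially encoded gene mt-Nd3 had 12.5, 166 and 92.3 CPM at day 23 and 11.0, 16.0 and 17.7 CPM at day 8, a log2 difference of 2.61 (adjusted p = 0.0034). All 3 were lowest in replicate 7 among the day 23 libraries, where Dcpp1, Snora21 and mt-Nd3 lay within their day 8 ranges or below them.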

How the results depend on the processing

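Alternatives are read beside the counts reported (952 higher and 792 lower than hour 0, 807 higher and 753 lower than day 8). Of 196 tested genes that are named, 171 were called against hour 0, and 82 of these were called in every one of the 17 alternatives that tested them. None of the 171 changed sign in any of these, but they were picked as called and the alternatives reuse the same libraries. Among the genes described above, limma-voom did not call Bpifa2, C2, Ccl7, Cd274, Cfb, Cyp7b1, Gfap, Hp, Ifit2 and Ighm. The same held for Il13ra1, Isg15, Klk1b26, Klk1b9, Mx1, Myc, Per2 and Pfkfb3. With a background rate subtracted, C2, Cdh1, Gfap, Il13ra1, Klk1b26 and Mcam were not called. Against hour 0, a filter at 20 CPM gave 1054 calls (591 higher, 463 lower), the 5 CPM filter over all 18 libraries 3312 (1365 higher, 1947 lower), filterByExpr 9349 (2344 and 7005) and no filter 8798 (2562 and 6236). Fitting only the groups compared gave 576 calls (285 and 291), and scaling by library totals gave 416 higher and 2037 lower genes. DESeq2 gave 1227 higher and 965 lower genes, limma-voom 915 and 888, DESeq2 size factors 1004 and 758, background subtraction 846 and 700, and the fit without day 2 768 and 656. Leave-one-out fits gave 1071 to 2721 calls, 515 to 1502 higher and 507 to 1219 lower. Against day 8, 1419 genes were lower with no filter, 584 were called (247 higher, 337 lower) with only the groups compared, and 525 were higher under library totals. Leave-one-out fits gave 571 to 1820 calls, 259 to 949 higher and 312 to 932 lower; replicates 2 and 3 of day 8, left out in turn, gave 571 and 798 calls. With secretory and mitochondrial genes left out of the denominator, the difference in share of counts (percentage points, day 23 minus hour 0) turned to -0.323 for the 10 most abundant genes, 0.00217 for blood endothelial genes and 0.000364 for macrophage, monocyte and dendritic cell genes. On leaving out each library in turn, that difference spanned -0.00212 to 0.00937 for immunoglobulin genes and -0.000332 to 0.00822 for B and plasma cell genes (below 0 without replicate 9), and -0.00453 to 0.00219 for blood endothelial genes. Sign changes in log2 fold change were found only in genes that were not called. They were -0.18 for Clec3b, -0.089 for Col1a1, -0.076 for Cxcl13, -0.21 for Ezh2, -0.20 for Kdm6b, -0.0084 for Malat1, -0.26 for Mki67 and -0.14 for Scara5 under library totals, 0.10 for Ifit1, 0.22 for Kdm6a, 0.15 for Pdpn and 0.033 for Rsad2 with no filter, 0.0038 for Ifit1, 0.14 for Kdm6a and 0.066 for Pdpn with filterByExpr, 0.024 for Kdm6a with the filter over all 18 libraries and -0.0021 for Mki67 without day 2. Their leave-one-out values ran from -0.016 to 0.20 for Clec3b, -0.046 to 0.32 for Col1a1, -0.11 to 0.46 for Cxcl13, -0.18 to 0.22 for Ezh2, -0.29 to 0.015 for Ifit1, -0.14 to 0.089 for Kdm6a, -0.11 to 0.21 for Kdm6b, -0.28 to 0.51 for Mki67, -0.24 to 0.086 for Pdpn and -0.0074 to 0.27 for Scara5. The causes of these shifts were not tested, and 3 libraries a group limit all of these counts. No paired analysis was possible because the groups compared share no replicate number.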

Other observations

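The 10 genes with most counts took 29.9% ± 5.28 of counts at day 23 and 19.1% ± 2.26 at hour 0 (SD, n = 3), and mitochondrially encoded genes took 9.74% ± 1.85 at day 23 and 6.45% ± 0.847 at hour 0. Contractile genes took 0.117% ± 0.0168 at day 23 and 0.250% ± 0.0634 at hour 0, and genes of small nucleolar and Cajal body RNAs took 0.152% ± 0.0510 at day 23 and 0.0600% ± 0.00332 at hour 0. In each of these 4 shares the groups did not overlap, and the exact permutation test gave the smallest p it can, 0.1, with an adjusted p of 0.167 over 20 shares. In a list of 5 sex-linked genes, the 4 Y-linked genes had no count in any library of day 23 or hour 0.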
